A study of Homo sapiens with 8 samples.

Results

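The regions described here lie at 10 genes that encode feedback inhibitors of mitogen-activated protein kinase (MAPK) signalling: DUSP1, DUSP2, DUSP4, DUSP5, DUSP6, SPRY1, SPRY2, SPRY4, SPRED1 and SPRED2. A peak belonged to the set if its summit lay in the body of one of these genes or within 50 kb of one of their transcription start sites. Merging the peak lists of 4 libraries gave 43654 regions in all, of which 47 held such a peak. Chromatin accessibility was measured by ATAC-seq, in which the transposase Tn5 cuts open DNA so that fragments pile up at accessible sites. The cells were HUDEP-2, an established line of human erythroid progenitors, carrying a control guide RNA (sgControl). All groups were starved of growth factors and serum for 5 h. For 1 h the sgControl_SCF group then received SCF at 50 ng/ml, that is, stem cell factor, which binds the receptor tyrosine kinase Kit, and the sgControl_PBS group received phosphate-buffered saline (PBS). There were 2 libraries of 50000 cells per treatment. The methods of the study call them biological duplicates, without saying what was repeated, and p-values measure the spread between these libraries only. The 4 sgEGR1 samples were not analysed here.

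Kit and other receptor tyrosine kinases signal through RAS and a chain of kinases to ERK. DUSP proteins are dual-specificity phosphatases that remove the activating phosphates from ERK and related kinases. Sprouty (SPRY) and SPRED proteins act further upstream, near the receptor, and SPRED1 and SPRED2 bring neurofibromin, which switches RAS off, to the membrane. Many of these genes are themselves switched on by ERK signalling, which closes a negative feedback loop. The question put to the lists was whether accessible sites at these genes appear, disappear or change in strength 1 h after SCF.

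Of the 47 regions, 29 (61.7%) were called in all 4 libraries, against 51.3% of all regions. A promoter region, whose summit is at most 1 kb from any start of the gene, was called in all 4 libraries at 10 of 10 genes. No share over all genes is given here. Counting regions at most 1 kb from a start of any gene, 15 of 20 member regions were called in all 4 libraries. Among all regions so placed, on the 24 chromosomes searched, it was 13250 of 17681. None of the 47 regions was SCF-only, against 1.65% of all regions, and 2 were PBS-only, against 2.37%. Of the 29 called in all 4 libraries, 1 gained rank with SCF, at the promoter of SPRED1, against 2.55% of all such regions, and 1 lost rank, 1.7 kb upstream of SPRY2, against 3.04%. The counts of SCF-only, PBS-only, rank gain and rank loss regions are near their background. No region passed the test fitted over all regions.

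The sequences that carry these results are printed first, from the GRCh37 assembly and on its plus strand. The first is the stretch just before the start of DUSP5, chr10:112257545-112257664. It is shown because the DUSP5 promoter was the only one of the 47 regions with a CArG box, the core of the serum response element, within 100 bp of its summit. It holds 2 such boxes, printed in capitals and directly next to each other. The first covers bases 112257585 to 112257594 and the second bases 112257595 to 112257604, which end 71 and 61 bases before the start.

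DUSP5 upstream: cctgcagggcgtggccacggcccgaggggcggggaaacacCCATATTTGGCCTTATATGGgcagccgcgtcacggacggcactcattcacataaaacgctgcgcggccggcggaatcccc

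The next 3 sequences are the 201 bases centred on the summits of 3 regions of SPRED1: the promoter region that gained rank (chr15:38544152-38544352), the strongest intronic region (chr15:38546640-38546840), and the PBS-only region deep in the gene (chr15:38616213-38616413). Capitals mark the GATA word AGATAA or TGATAA, read on either strand, so that a match on the minus strand appears as TTATCT or TTATCA. The PBS-only region holds 3 of them and the other two sequences hold none.

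SPRED1 promoter: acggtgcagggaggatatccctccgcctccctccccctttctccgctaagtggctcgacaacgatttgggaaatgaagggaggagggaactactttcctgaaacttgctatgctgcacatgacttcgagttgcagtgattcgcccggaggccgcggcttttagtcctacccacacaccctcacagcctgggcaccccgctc

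SPRED1 intron, +1.7 kb: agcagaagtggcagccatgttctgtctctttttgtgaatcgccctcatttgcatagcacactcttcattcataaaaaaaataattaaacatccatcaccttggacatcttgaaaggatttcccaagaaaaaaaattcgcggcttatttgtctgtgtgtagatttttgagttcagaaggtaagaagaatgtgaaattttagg

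SPRED1 intron, +71.3 kb: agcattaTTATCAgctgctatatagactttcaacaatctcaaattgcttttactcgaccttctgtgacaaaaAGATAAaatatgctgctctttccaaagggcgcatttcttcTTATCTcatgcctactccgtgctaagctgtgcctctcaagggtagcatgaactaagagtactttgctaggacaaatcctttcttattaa

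The last pair shows the region upstream of SPRY2 that lost rank (chr13:80916906-80917106) and the strongest region outside a member's promoter, upstream of DUSP6 (chr12:89787525-89787725), again 201 bases around the summit with GATA words in capitals.

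SPRY2 upstream, -1.7 kb: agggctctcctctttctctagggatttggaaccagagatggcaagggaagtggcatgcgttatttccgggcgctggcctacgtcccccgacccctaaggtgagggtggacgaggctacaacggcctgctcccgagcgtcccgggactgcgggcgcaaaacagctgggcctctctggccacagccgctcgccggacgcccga

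DUSP6 upstream, -41.3 kb: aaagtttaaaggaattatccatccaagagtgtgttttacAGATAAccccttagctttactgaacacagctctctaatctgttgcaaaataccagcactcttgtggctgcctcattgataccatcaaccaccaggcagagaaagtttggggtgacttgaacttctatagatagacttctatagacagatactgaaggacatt

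Peak lists give no read totals, so depth was estimated from the lowest background. Taking PBS replicate 1 as the unit, PBS replicate 2 had a depth of 1.42 and the SCF libraries had depths of 0.883 and 0.843, so both SCF libraries were the shallower ones. The lists held between 29269 and 33616 peaks. As a check of the labelled cell type, the promoters of 9 of 11 erythroid marker genes, GATA1, KLF1, TAL1 and KIT among them, held a peak in all 4 libraries, while ALAS2 and HBA1 had one in PBS replicate 2 only. None of 3 T cell and none of 2 hepatocyte markers had a promoter peak in any library. The promoters of SPI1, CSF1R, CD14 and ITGA2B, which mark other blood lineages, held a peak in all 4 libraries, PAX5 held one in SCF replicate 1 only, and CD79A, MPO and PF4 held none.

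The PBS libraries had 37 and 39 peaks at the feedback inhibitors, and the SCF libraries had 35 and 34. Both PBS counts were thus above both SCF counts. On average there were 38 ± 1.41 peaks with PBS and 34.5 ± 0.707 with SCF (SD, n = 2), which differ by −3.5 (two-sided exact permutation p = 0.333, the smallest p that 2 libraries against 2 can give). Per 10000 peaks of the library, the means were 11.9 ± 0.448 with PBS and 11.1 ± 1.24 with SCF (SD, n = 2, exact permutation p = 0.667). The difference in number depended on which peaks were counted: it was −0.5 when only peaks reaching a −log10 q of 5 were kept, and 0 when every list was cut to the same length.

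Of the 47 regions, 29 were called in all 4 libraries, or 61.7%, against 51.3% of all regions. A further 11 were called in 1 library, 5 in 2 and 2 in 3. The regions called in all 4 were the stronger ones of the set, with a median of 38 fragments over the summit (range 12 to 139). The regions called in fewer had a median of 12 (range 7 to 26) and a median percentile rank of 16.9. The percentile rank used throughout orders the peaks of a list by their fold enrichment over local background, with 100 for the highest. By mean rank over the 4 libraries, the 29 members had a median of 50.7, below the 63.3 of all regions called in all 4. The number of regions per gene ran from 2 at DUSP5, SPRY1 and SPRY4 to 9 at SPRED2, which spans 121.8 kb and was the longest of the genes. By position, 20 regions sat at most 1 kb from a start of some gene (12 of them from that of a member), 15 in introns, 3 in exons and 9 between genes. For 41 regions the nearest start of a protein-coding gene was that of the member. For the other 6 it was ERGIC1, ADRA2B, POC1B or, in 3 cases, STARD7, so those regions may belong to the neighbour.

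**Figure D1:**
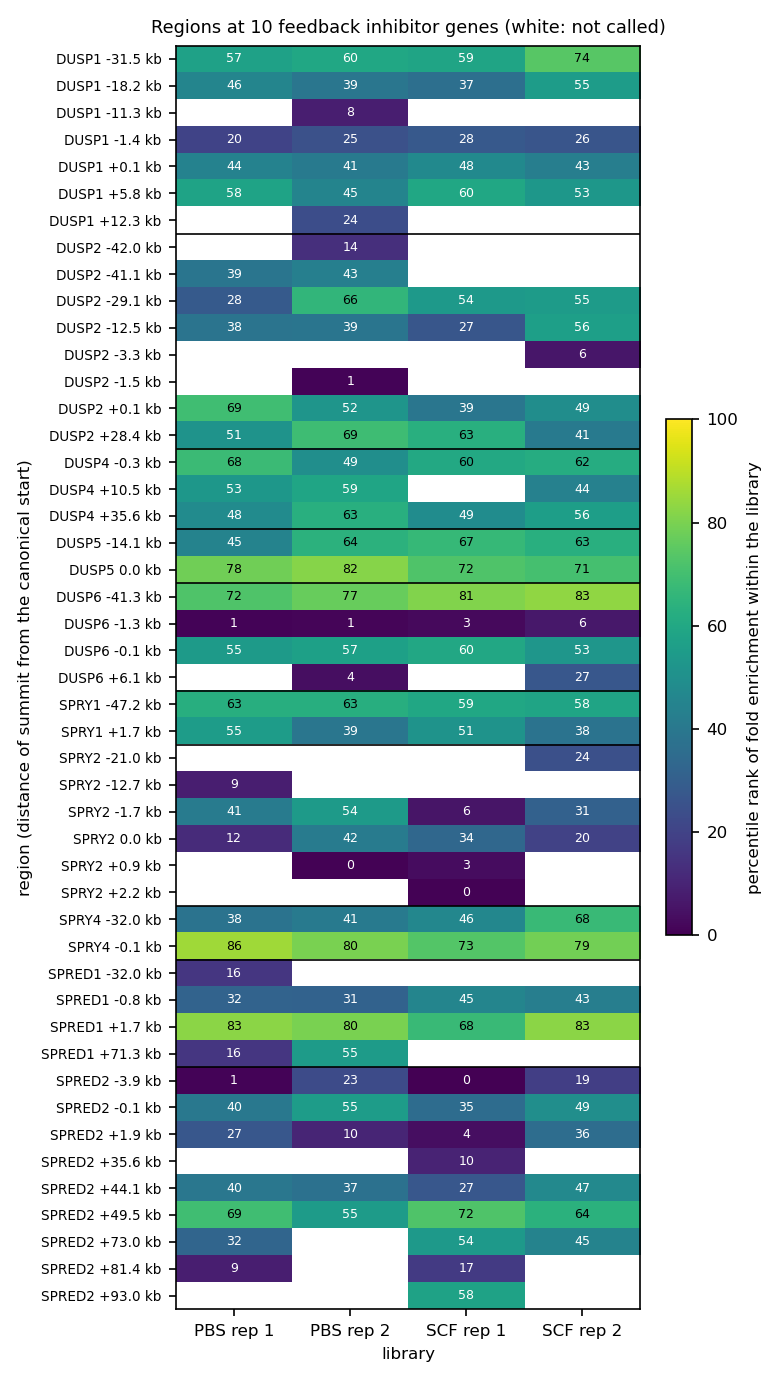
Percentile rank of fold enrichment within the library (colour and printed value, 0 to 100) for all 47 regions in the 4 libraries, named by gene and by distance of the summit from the canonical start in kb. White cells are libraries in which the region was not called; they are mostly regions of low rank, and the row SPRED1 +71.3 kb is filled in the PBS libraries only.

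**Figure D2:**
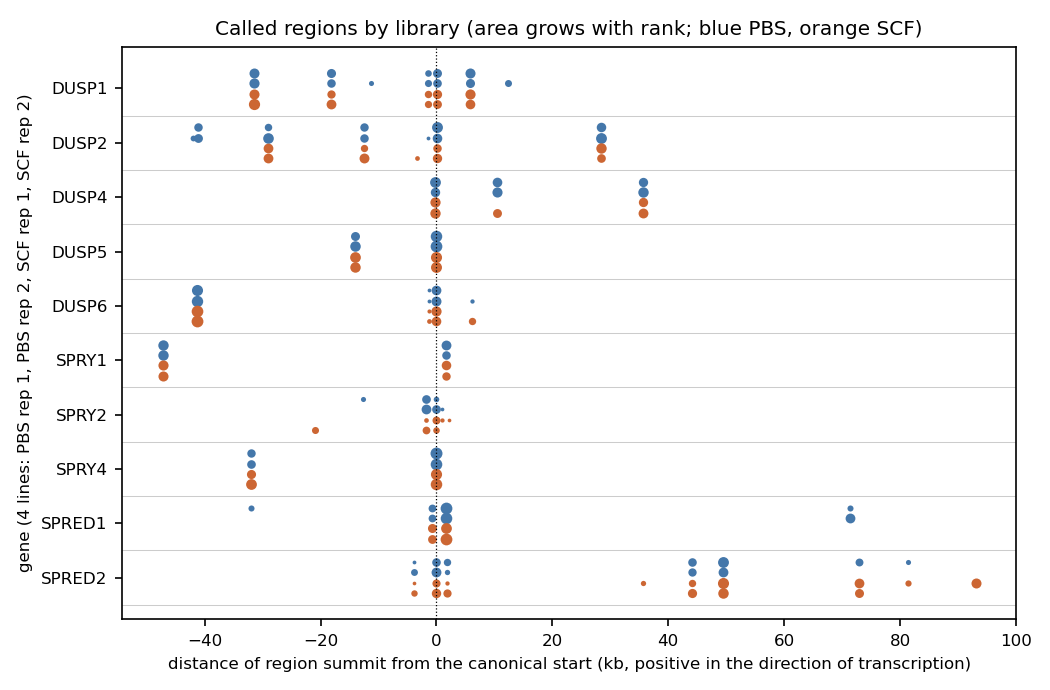
Position of each called region (x axis, kb from the canonical start, positive in the direction of transcription) at the 10 genes (y axis), with 1 line of points per library, blue for PBS and orange for SCF, and point area growing with rank. Every gene has a column of 4 points at or near 0 kb. Of the 35 regions more than 1 kb from any start of a member, 19 were called in all 4 libraries.

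Before regions are compared between treatments, the background for such differences is given by all regions of the lists. Among the members 0 were SCF-only (present in each SCF list and in no PBS list), against 1.65% of all regions, and 2 were PBS-only, against 2.37%. Among the 29 called in all 4 libraries, 1 gained rank with SCF, meaning that its lower SCF rank was at least 10 points above its higher PBS rank, against 2.55% of all such regions. Another 1 lost rank, against 3.04%. Counting any separation, both SCF ranks lay above both PBS ranks in 5 regions, against 16% of all, and below them in 5, against 19.3%. These 2 counts are near their background too. With 1 library left out, so that a single library stood for its treatment, PBS-only regions numbered 6 without PBS replicate 1, 4 without PBS replicate 2, 3 without SCF replicate 2 and 2 without SCF replicate 1, and SCF-only regions 1, 0, 3 and 2 in the same order.

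Percentile ranks of the 22398 regions called in all 4 libraries were also fitted together with limma. No member passed an adjusted p of 0.05 (Benjamini-Hochberg), nor did any other region (0 of 22398, 0%), and the smallest adjusted p over all regions was 0.858. At an unadjusted p under 0.05 there was 1 member among the 29, the region upstream of SPRY2, against 5.47% of all regions. The other limma fits that were run also called 0 regions. The mean SCF rank minus the mean PBS rank had a median of 1.11 points over the 29 members (16 above 0 and 13 below) and of −0.527 points over all regions. Ranked by −log10 p or by recovered pileup in place of fold enrichment, the members' median was −0.297 and −0.352, so its direction depends on the measure.

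**Figure D3:**
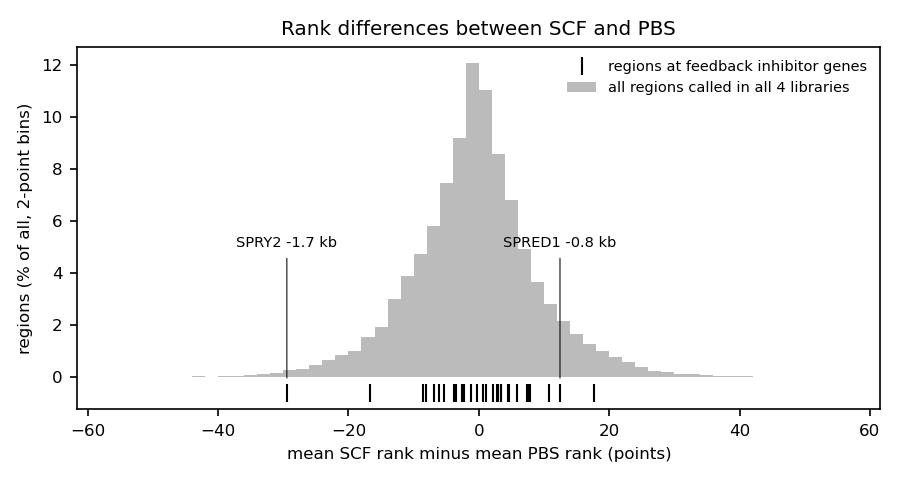
Mean SCF rank minus mean PBS rank, in points, for all 22398 regions called in all 4 libraries (grey bars, percent of regions per 2-point bin), with the 29 regions at the feedback inhibitors as black ticks below. Most ticks lie in the centre of the distribution; the rank gain at SPRED1 and the rank loss at SPRY2 are named.

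The promoters of the phosphatase genes come first. DUSP5, which codes for a nuclear phosphatase of ERK, had ranks of 78.4 and 81.7 with PBS and 72.4 and 70.6 with SCF (chr10:112257152-112258335). Both SCF ranks were lower, and the mean difference was −8.59 points. Its interval reached from −21.6 to 4.42 (95%, limma adjusted p = 0.874). The fold enrichments were 11.2, 11.5, 10.3 and 9.42 in the same order. This is the promoter with the adjacent CArG boxes printed above.

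DUSP2, a nuclear phosphatase known from blood cells, showed the same order at its promoter (chr2:96810719-96811488), with ranks of 69.3 and 52.1 with PBS and 39.1 and 49.0 with SCF. The groups did not overlap, but the PBS libraries lay as far from each other as the treatments did (difference −16.6, 95% interval −39.8 to 6.47, limma adjusted p = 0.872). Without PBS replicate 2 the difference was −25.3, and without PBS replicate 1 it was −8.002. By recovered pileup the difference in rank was −3.04.

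The promoters of the other phosphatases overlapped between treatments. DUSP1, an immediate early gene for a phosphatase of ERK, p38 and JNK, had promoter ranks of 44.2 and 40.6 with PBS and 47.5 and 42.8 with SCF. DUSP1 also held the highest pileups of the set, 120, 139, 96 and 106 fragments, in the order PBS replicates 1 and 2, then SCF replicates 1 and 2. DUSP4, another nuclear phosphatase, had ranks of 68.1 and 49.5 with PBS and 60.2 and 61.8 with SCF. DUSP6, the cytoplasmic phosphatase of ERK, had ranks of 54.6 and 56.6 with PBS and 59.8 and 52.6 with SCF. The limma intervals of the difference (95%) were −19.8 to 25.2 for DUSP1, −18.4 to 22.9 for DUSP4 and −18.4 to 19.6 for DUSP6. With 2 libraries per treatment, the data are thus compatible with differences in either direction within these bounds.

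Among the Sprouty genes, SPRY4 had the highest promoter of the set (chr5:141704116-141705053), with ranks of 85.7 and 79.95 with PBS and 73.3 and 78.6 with SCF. Both SCF ranks were below both PBS ranks, with a mean difference of −6.86 points (95% interval −19.5 to 5.78, limma adjusted p = 0.898). The difference was −4.003 without PBS replicate 1 and −4.18 without SCF replicate 1. SPRY2 had the lowest promoter, and the one whose replicates lay farthest apart: its ranks were 12.2 and 41.6 with PBS and 33.5 and 19.7 with SCF. SPRY1, whose promoter region sat 1.7 kb downstream of the canonical start at the start of another transcript, had ranks of 55.2 and 39.4 with PBS and 51.5 and 38.1 with SCF.

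Of the SPRED genes, SPRED1 carried the only rank gain (chr15:38543749-38544882, summit 0.8 kb upstream of the start). Its ranks were 31.8 and 31.5 with PBS and 45.4 and 42.7 with SCF. The replicates of each treatment lay close together, and both SCF ranks were higher, by 12.4 points on average (95% interval −10.8 to 35.7, limma adjusted p = 0.8996, exact permutation p = 0.333, the smallest possible). The fragments over the summit numbered 37, 46, 40 and 41 in the order above, and the fold enrichments were 5.45, 5.18, 6.82 and 6.11. The raw pileups overlapped, while the fold enrichments, which are relative to each library's background, did not. By recovered pileup the region's difference in rank was 4.27 points and by −log10 p 6.58, and it was no rank gain by either measure. The SPRED2 promoter overlapped between treatments, with ranks of 39.9 and 55.4 with PBS and 35.2 and 49.5 with SCF.

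Over the 10 promoters, the order by mean rank was SPRY4 at 79.4, DUSP5 at 75.8, DUSP4 at 59.9, DUSP6 at 55.9, DUSP2 at 52.4, SPRY1 at 46.1, SPRED2 at 45.0, DUSP1 at 43.8, SPRED1 at 37.9 and SPRY2 at 26.7. Among neighbours in this order, only DUSP5 and DUSP4 had ranges over the 4 libraries that did not overlap (70.6 to 81.7 and 49.5 to 68.1). Differences between treatments went both ways: 4 promoters were higher and 6 lower with SCF, with a median of −1.39 points and a range from −16.6 to 12.4. Over the 19 other regions called in all 4 libraries, 12 were higher and 7 lower, with a median of 3.36 points. The same split of all regions is not given here, and neither is the split by −log10 p or recovered pileup.

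**Figure D4:**
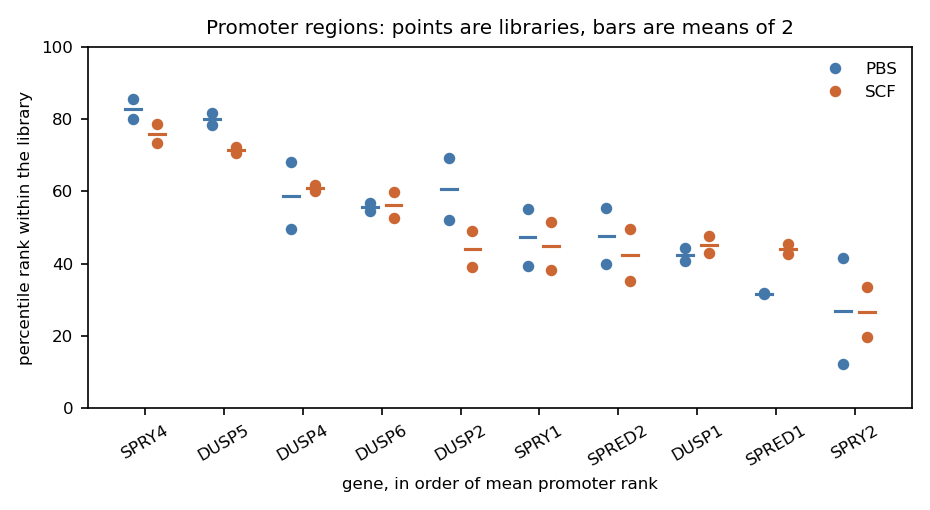
Percentile rank of the promoter region (y axis, 0 to 100) of each gene, ordered by mean rank, with 1 point per library (blue PBS, orange SCF) and a bar at the mean of 2 libraries. SPRED1 has both SCF points above both PBS points, SPRY4, DUSP5 and DUSP2 have them below, and the other 6 genes overlap.

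Away from promoters, the strongest region was 41.3 kb upstream of DUSP6 (chr12:89787224-89788025). It lies in an intron of ENSG00000286608, and the nearest protein-coding start is that of POC1B, so its assignment to DUSP6 rests on distance alone. Its ranks were 72.5 and 76.8 with PBS and 81.1 and 83.4 with SCF. Both SCF ranks were higher, by 7.63 points on average (limma SE 5.30 points, adjusted p = 0.881). A GATA word lies within 100 bp of its summit.

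SPRED1 had a region of nearly the same mean rank, 78.2, in its own intron 1.7 kb downstream of the start (chr15:38546459-38546997). Its ranks were 82.7 and 79.9 with PBS and 67.8 and 82.7 with SCF, and its summits held 84, 105, 56 and 80 fragments. SCF replicate 1 stood below the other 3 libraries, and the difference of −6.09 points became 1.36 without that library (95% interval with all libraries −21.3 to 9.12, limma adjusted p = 0.934).

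This intronic region is the one cut by a pair of guide RNAs that the study designed for a deletion. The guides carry the names SPRED2-KRE-1 and SPRED2-KRE-2, but each matched the genome only at SPRED1. They are printed with the NGG motif (PAM) in capitals, each on the strand it reads.

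SPRED2-KRE-1: atgtgggaaatatcagttcgGGG

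SPRED2-KRE-2: gacacgtccaatattcacaaAGG

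The first lies at chr15:38546904-38546923 on the plus strand, in the intron, and the second at chr15:38546035-38546054 on the minus strand. With cuts 3 bases before each PAM, 883 bases lie between them. They take in 462 of the 539 bases of the called region, or 85.7%, and its summit, but not the promoter region upstream.

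The PBS-only region of SPRED1 lies 71.3 kb into the gene, in an intron (chr15:38616044-38616574). Its ranks were 15.7 in PBS replicate 1 and 54.8 in PBS replicate 2, from 8 and 17 fragments over the summit. No peak was called there in the SCF libraries, whose depths were lower. The lowest pileups among the set's peaks were 7 and 9 fragments in PBS replicates 1 and 2 and 7 and 8 in SCF replicates 1 and 2. The part of depth in the missing calls was not tested. The other PBS-only region lies 41.1 kb upstream of DUSP2, in an exon of STARD7 (chr2:96852160-96852484), with ranks of 38.9 and 43.1 and pileups of 12 and 14. When a −log10 q of 5 was required, the region in STARD7 was still PBS-only and the one in SPRED1 was called in PBS replicate 2 alone.

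The rank loss was at SPRY2, 1.7 kb upstream of its start and outside any annotated gene (chr13:80916851-80917413). The ranks were 41.4 and 54.4 with PBS and 5.77 and 31.1 with SCF, and the summits held 35, 50, 21 and 29 fragments. Both SCF libraries were lower on both measures, and SCF replicate 1 was the lowest. The fragment counts are not corrected for depth, which was 1 and 1.42 with PBS and 0.883 and 0.843 with SCF. The part of depth in the lower counts was not tested. The difference was −29.4 points (95% interval −58.4 to −0.475, from limma over all regions; unadjusted p = 0.0472, limma adjusted p = 0.858). It was −16.8 without SCF replicate 1 and −42.1 without SCF replicate 2. The fold enrichments were 6.35, 7.18, 3.78 and 5.28. By pileup or −log10 p it stayed lower, by −11.6 and −24.7 points, but was no rank loss by the gap of 10 points. The SPRY2 promoter itself, with its summit next to the start, differed by −0.274 points, a value that was −15.0 without PBS replicate 1 and 14.4 without PBS replicate 2.

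**Figure D5:**
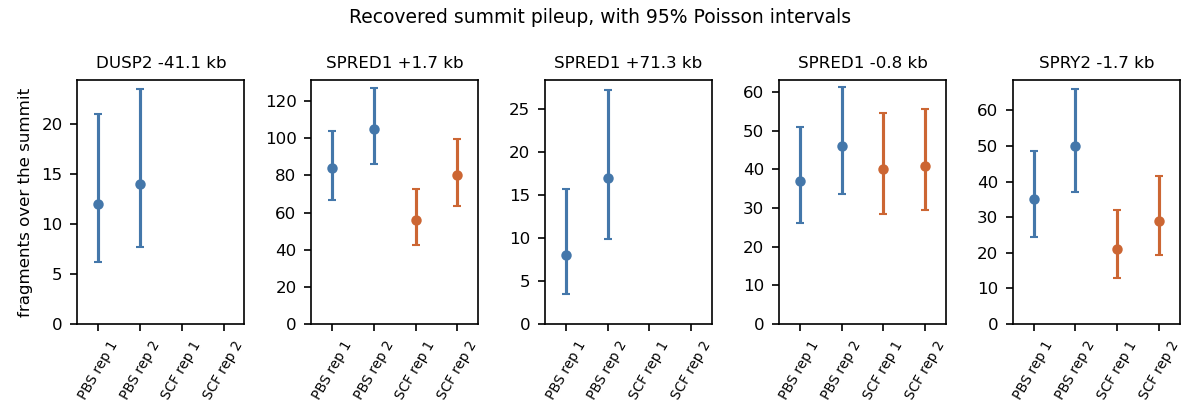
Fragments over the summit (y axis, from 0, on a scale of its own in each panel) in the 4 libraries for the PBS-only, rank gain and rank loss regions and for the SPRED1 intronic region, with 95% Poisson intervals that cover counting error only and no correction for depth. The SPRED1 promoter (SPRED1 -0.8 kb) overlaps between treatments, and both PBS-only panels hold at most 17 fragments.

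The remaining strongest regions outside the members' own promoters were these. SPRY4 had one 32.0 kb upstream, in an intron of SPRY4-AS1, with ranks of 38.1 and 40.8 with PBS and 46.2 and 67.8 with SCF. Both SCF ranks were higher, by 17.6 points, of which SCF replicate 2 set the larger share: the difference was 6.78 without it and 28.4 without SCF replicate 1 (95% interval with all libraries −7.25 to 42.5, limma adjusted p = 0.872). SPRY1 had one 47.2 kb upstream, with ranks of 62.6 and 62.7 with PBS and 59.4 and 58.3 with SCF. Both SCF ranks were lower there, with a mean difference of −3.82 points (95% interval −20.8 to 13.2, adjusted p = 0.968).

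The corresponding regions of the other genes overlapped between treatments. That of DUSP1 was at most 1 kb from a start of ENSG00000290019, and that of DUSP2 was 472 bases from a start of ADRA2B. These regions lay 31.5 kb upstream of DUSP1 (7.85 points higher with SCF, nearest coding start ERGIC1) and 28.4 kb downstream of the DUSP2 start (−8.13, nearest coding start ADRA2B). The others lay 35.6 kb downstream of the DUSP4 start (−3.44), 14.1 kb upstream of DUSP5 (10.7) and 49.5 kb into SPRED2 (5.90). Each of these differences turned on 1 library. Without SCF replicate 2 the DUSP1 value was 0.0649, without PBS replicate 1 the DUSP5 value was 0.900, and without PBS replicate 2 the values were 0.804 at DUSP2, 3.90 at DUSP4 and −1.23 at SPRED2. The last 2 of the 5 regions with both SCF ranks higher were close to promoters, 1.4 kb upstream of DUSP1 (20.2 and 24.8 with PBS, 27.8 and 26.2 with SCF) and 1.3 kb upstream of DUSP6 (0.899 and 1.36 with PBS, 2.64 and 6.35 with SCF), and are named here because of these values.

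Nearest to the edge of the 50 kb windows, the outermost region inside was the one upstream of SPRY1. Just outside, 50.2 kb upstream of DUSP2, lay a region with ranks of 49.6 and 38.0 with PBS and 38.2 and 47.1 with SCF.

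What the 47 regions share in sequence was described for 6 short words within 100 bp of the summit, on both strands. No word contains another, though neighbouring matches can share bases. The GATA word defined above was the most frequent, in 15 regions (31.9%, against 25.4% of the 43569 regions on the 24 chromosomes searched), but in 6 of 35 (17.1%) with windows of 15 kb. The AP-1 word, TGANTCA, was in 5 (10.6% against 8.43%). The word of EGR factors, GCGTGGG, was in 2 (4.26% against 3.80%), at the region downstream of DUSP2 and the one 49.5 kb into SPRED2. The CArG box was in 1 (2.13% against 0.918%). Within 250 bp it was still in 1, against 2.38% of all regions. The ETS word, CCGGAAG, found at 4.44% of all regions, was in none of the members. The cAMP response element, spelled TGACGTCA and found at 0.682% of all regions, was also in none. None of the 12 regions within 1 kb of a member's start held the AP-1, EGR or GATA word in this window. The shares above are of all regions, and the share among promoter regions alone is not given here, so this count has no background beside it.

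Other genes of the pathway were treated by the same rule of position. At 17 other negative regulators there were 59 regions, 32 of them called in all 4 libraries (54.2%). SCF-only regions numbered 2, in the windows of DUSP3 and SPRED3, where the nearest coding starts were those of SOST and RYR1. There were 0 PBS-only regions, 1 rank gain in the PEA15 window (in DCAF8) and 1 rank loss. That loss was at the promoter of DUSP14, a further dual-specificity phosphatase, where ranks of 64.2 and 57.6 with PBS stood against 33.4 and 28.3 with SCF. IER3 had no region, but the nearest peaks of any list lay 2.25 Mb to one side of it and 1.79 Mb to the other, so IER3 was not analysed here.

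At 20 genes of the cascade itself, among them the adaptor GRB2 and the exchange factor SOS1, there were 165 regions, 98 of them called in all 4 libraries (59.4%). They held 0 SCF-only and 4 PBS-only regions, the latter in the windows of MAP2K1, GRB2 and, in 2 cases, KSR1. The PBS-only region 195 kb downstream of the KSR1 start lies in NOS2P1, with LGALS9 as the nearest coding start. Rank gains numbered 2. The 3 rank losses were in the PTPN11 window, in an intron of RPL6, and 2 in the KSR1 window. The loss 175 kb downstream of the KSR1 start lies in LGALS9, also the nearest coding start. The median rank difference was 3.01 points at the other negative regulators (22 higher and 10 lower) and −0.815 at the cascade genes (43 higher and 55 lower), and limma called 0 regions in either list.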

How the data were processed

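Per the labels, the authors' processing notes name bcl2fastq, Bowtie2 and SAMtools, and the study's methods the ENCODE ATAC-seq pipeline. The caller and its settings are not given in the sources used here. The methods name hg38, whereas the deposited lists and the series description name hg19. Coordinates were read as hg19 and compared with GRCh37 (24 chromosomes, 0 exceeded) and GENCODE release 44 lifted to it. Each library was called on its own. The deposited score column was not used. The deposited signal column is a fold enrichment at the summit, and the deposited −log10 p and −log10 q give its significance. Inside the lists, peak names hold the replicate numbers 2, 3, 1 and 2 where the labels give PBS 1, PBS 2, SCF 1 and SCF 2, and the labels were followed.

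Peaks sharing at least 1 bp were merged, and each library's value for a region was that of its highest-ranked peak. A whole-number pileup was recovered from fold enrichment and −log10 p under a Poisson distribution, within a relative error of 0.0001 for 100% of peaks in each library. Its intervals cover counting error only. Ranks were fitted with limma 3.58.1 (R 4.3.3, trended and robust empirical Bayes, treatment only, Benjamini-Hochberg over all regions). Scripts were tested on simulated data. Distances run from the canonical start, whereas promoter membership uses any start of the gene.

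The 10 genes, the pathway and marker lists and the tests were chosen with earlier results of these data known. For each gene the text names its highest-ranked promoter region, its highest-ranked other region, and every region that was SCF-only, PBS-only, gained or lost rank or was called by limma, and the region cut by the study's guides. Some items of the marker and pathway lists are not reported here.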

Additional observations from a re-analysis of the deposited data

How the results depend on the processing

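With a −log10 q of at least 5, the difference in member peaks was −0.5, PBS-only regions numbered 1 and rank gains 0. With an equal number of peaks per list that difference was 0, and with 15 kb windows it was −2, with 1 PBS-only region. Rank gains and rank losses were 0 and 0 by −log10 p, 0 and 0 by recovered pileup, 2 and 2 at a gap of 5 points, and 0 and 0 at a gap of 20 points. The median rank difference of the members reversed to −0.297 by −log10 p and to −0.352 by recovered pileup. The cause was not tested. Leaving out 1 library at a time gave differences in member peaks of −4.5 to −2.5, SCF-only counts of 0 to 3, PBS-only counts of 2 to 6, rank gains of 1 to 4, rank losses of 2 to 4 and medians of 0.900 to 1.75. A single library per treatment then decides a pattern, so more regions can meet it. The limma fit called 0 regions under each of the 11 alternatives run. Within 250 bp of the summit, the AP-1 word was in 9 member regions (19.1%, against 17.9% of all regions), the ETS word in 3 (6.38% against 9.22%) and the cAMP response element in 1 (2.13% against 1.501%). In the same window the GATA word was in 21 (44.7% against 41.4%), the EGR word in 2 (4.26% against 8.87%) and the CArG box in 1 (2.13% against 2.38%). With 15 kb windows, which left 35 member regions, the GATA word was in 6 (17.1%, below the 25.4% of all regions, whereas 50 kb windows gave 31.9%), the AP-1 word in 3 (8.57% against 8.43%) and the EGR word in 1 (2.86% against 3.80%). Regions called in 1 to 3 libraries had 7 to 26 fragments over the summit, and the part of depth in those calls was not tested.

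Whether replicate numbers pair the libraries is not stated in the sources used here. By the label numbers, the replicate 1 minus 2 differences in rank of the 2 treatments had a correlation of 0.0239 over 22398 regions. This value cannot show whether libraries were prepared in pairs, and pairing by the numbers inside the peak names was not tested. With the replicate block, limma called 0 regions (1216 at an unadjusted p under 0.05, smallest adjusted p 0.821).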

Other observations

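A guide that the study designed for a DUSP5 element lies upstream of the DUSP5 start, at −218 kb, outside the window of 50 kb, in an exon of MXI1 (chr10:112039324-112039343, plus strand). It is printed with its PAM in capitals.

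DUSP5-KRE: ctggtggagatgacttcattTGG

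No region of the 4 lists covered its cut site. The nearest region began and ended at chr10:112034779-112035458, 3875 bases away, with ranks of 69.9 and 74.8 with PBS and 42.1 and 61.8 with SCF, from pileups of 27, 41, 17 and 24 fragments. Both SCF ranks were lower there, and SCF replicate 1 was the lowest. The region was looked up because of the guide and was not tested on its own.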
